A study of Rattus norvegicus with 9 samples.

Results

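Type I interferon-stimulated genes were followed in the livers of rats given the liver carcinogen diethylnitrosamine (DEN), with or without Pien-Tze-Huang (PZH), a traditional Chinese medicine formula. The set holds 9 genes chosen by name (Irf7, Isg15, Usp18, Mx1, Mx2, Oas1a, Ifit2, Ifit3 and Rsad2), of 32883 genes in the deposited table. The rule is a list of names with no threshold on any value, and the list was drawn up with earlier results of these data known. Each of the 9 matched 1 gene identifier. Liver RNA was sequenced as 1 library for each of 9 male Sprague-Dawley rats, separate animals, 3 in the normal control group (N1, N3 and N12), 3 in the DEN model group (M13, M17 and M24) and 3 in the PZH administration group (G27, G28 and G42). The normal control rats received a normal diet. The other 6 rats belonged to groups injected intraperitoneally each week with 0.01% DEN over a course of 16 weeks, and those of the PZH administration group received PZH in addition. The study used a low and a high dose of PZH and killed rats at several time points, and neither the dose nor the week of any sequenced rat is given in the sources used here. The treatment label reads PZH for the DEN model rats as well, so the groups were read from the first letter of the rat names together with the study's methods. The age of the rats is likewise not given.

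Cells that sense viral or displaced nucleic acid secrete type I interferons, which bind the receptor IFNAR on the same and on neighbouring cells. The receptor's kinases JAK1 and TYK2 then pass the signal to the nucleus, where transcription starts from promoters that carry the interferon-stimulated response element. The 9 genes are among the best known targets of this route. Irf7 encodes a transcription factor that amplifies interferon production, Isg15 a ubiquitin-like modifier, and Usp18 the protease that removes ISG15 and also dampens receptor signalling. Mx1 and Mx2 encode dynamin-like GTPases that block viral replication, and Oas1a encodes a synthetase of the oligoadenylates that activate RNase L. Ifit2 and Ifit3 encode proteins that bind foreign RNA or assist such binding, and Rsad2 encodes viperin, a radical SAM enzyme that makes a chain-terminating nucleotide. In the liver, hepatocytes, macrophages and endothelial cells can all express them.

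Promoter sequence was found for 5 of the 9 genes in RefSeq (build GRCr8), as the 250 bases before and 50 bases after each gene's start. The letters GAAANNGAA, the core of the interferon-stimulated response element, were searched on both strands, where a match on the opposite strand reads TTCNNTTTC. A match was present in 4 of the 5 promoters, and in 9.71% of all 33469 promoters of the same length. Stretches of 60 bases are shown because they hold every match in these 4 genes and, for Mx1, the bases next to the start, with matches in capitals and each read 5′ to 3′ along the gene's strand.
Rsad2 (chr6:48788233-48788292, minus strand): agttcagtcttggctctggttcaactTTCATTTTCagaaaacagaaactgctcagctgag
Mx1 (chr11:50294607-50294666, minus strand): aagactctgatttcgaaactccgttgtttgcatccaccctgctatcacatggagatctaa
Irf7 (chr1:205800058-205800117, minus strand): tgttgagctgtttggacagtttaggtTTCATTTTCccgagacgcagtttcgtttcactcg
Oas1a (chr12:41330402-41330461, plus strand): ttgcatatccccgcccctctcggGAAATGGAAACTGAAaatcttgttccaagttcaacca
Ifit3 (chr1:241527266-241527325, plus strand): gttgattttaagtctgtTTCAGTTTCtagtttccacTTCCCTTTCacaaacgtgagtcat
The match lay 146 bases before the start in Rsad2 and 68 bases before it in Irf7. Oas1a held a pair of overlapping matches at 41 and 35 bases, and Ifit3 a pair at 43 and 24 bases. The window of Mx1 held no match, which says only that these letters are absent there. The matches are a description of sequence and were not tested for binding.

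The total of reads counted on genes ranged from 14922973 to 27161496 per rat, G27 being the deepest. Counts were scaled to CPM, that is to an equal library size, with TMM factors, which correct for libraries in which a few genes take a large share of the reads. The factors were 0.7315 to 0.799 in the normal control group, 1.214 to 1.576 in the DEN model group and 0.8636 to 0.9417 in the PZH administration group, so that the choice of scaling moves every gene of a DEN model rat. With library totals in place of TMM, the median log2 fold change of all tested genes became 0.895 for DEN model against normal control and -0.668 for PZH administration against DEN model, where it was 0.029 and 0.00526 with TMM. Counts of the 9 genes lay between 27 and 1626 in a single rat, and 3 counts, taken as the floor, corresponded to 0.125 to 0.252 CPM and cover counting error only. Markers of hepatocytes (8 genes, Alb among them) summed to between 129000 and 136000 CPM in the normal control group, 19900 to 48300 in the DEN model group and 92400 to 131000 in the PZH administration group, so the liver label held in all 9 rats. In bulk tissue, fewer cells of a type and less RNA per cell cannot be told apart.

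All 9 genes were expressed in every rat, at moderate levels. On the FPKM scale with TMM scaling, which allows levels of different genes to be compared per length, Irf7 was the highest in the normal control group at 16.8 ± 5.30 (SD, n = 3), followed by Mx2 at 13.2 ± 7.04 and Usp18 at 9.98 ± 5.40. Rsad2 was the lowest at 1.94 ± 0.399. Between them lay Ifit2 at 7.80 ± 0.588, Oas1a at 5.10 ± 2.46, Isg15 at 4.22 ± 2.77, Mx1 at 4.01 ± 1.996 and Ifit3 at 3.51 ± 0.818. Neighbours in this order differed by less than the larger of their SDs, apart from Ifit2 over Oas1a and Ifit3 over Rsad2. In the DEN model group Irf7 remained the highest at 25.3 ± 10.3, and Oas1a was the lowest at 3.88 ± 1.63, next to Ifit3 at 4.28 ± 1.78, Isg15 at 4.46 ± 1.39 and Rsad2 at 4.78 ± 3.14, which did not differ from it beyond their SD. In the PZH administration group the ends were again Irf7 at 18.5 ± 9.09 and Rsad2 at 2.25 ± 0.299.

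Irf7, the transcription factor (chr1:214248837-214252456 in the coordinates of the deposited table, whose build is not given in the sources used here), was measured at 26.8 CPM in N1, 27.4 in N3 and 45.2 in N12, at 69.0 in M13, 52.1 in M17 and 28.4 in M24, and at 41.4 in G27, 51.5 in G28 and 16.7 in G42. M13 and M17 lay above all normal control rats while M24 lay among them, and G42 was the lowest of the 9. The group means were 33.2 ± 10.4, 49.9 ± 20.4 and 36.5 ± 17.9 CPM (SD, n = 3 each).

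Isg15 (chr5:173624310-173626248), the modifier that is conjugated to other proteins, was the most thinly covered of the 9. Its level was 4.92 CPM in N1, 2.26 in N3 and 9.46 in N12, then 7.18 in M13, 6.63 in M17 and 3.79 in M24, and 10.7 in G27, 5.91 in G28 and 4.48 in G42. The 3 groups overlapped throughout, with means of 5.54 ± 3.64, 5.86 ± 1.82 and 7.05 ± 3.28 CPM. Usp18 (chr4:153805993-153834430), its protease, stood at 8.66 CPM in N1, 16.3 in N3 and 27.5 in N12, at 16.5 in M13, 19.2 in M17 and 8.49 in M24, and at 15.2 in G27, 23.1 in G28 and 13.5 in G42. Here too the groups overlapped, and N12 was the highest of the 9 rats. The modifier and its protease thus varied more among the normal control rats, where Usp18 spanned a ratio of 3.17 and Isg15 of 4.18, than between the group means.

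Mx1 (chr11:37891156-37914983) was the member whose DEN model rats lay above both other groups. It was measured at 7.02 CPM in N1, 12.7 in N3 and 20.2 in N12, at 34.4 in M13, 25.6 in M17 and 22.1 in M24, and at 15.1 in G27, 20.2 in G28 and 7.69 in G42. Every DEN model rat exceeded every rat of the other groups, by a small margin between M24 on the one side and N12 and G28 on the other. In the deposited FPKM, which carry no TMM scaling, the same gene ran from 1.69 to 4.87 in the normal control rats, from 9.39 to 15.4 in the DEN model rats and from 2.18 to 5.65 in the PZH administration rats.

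Mx2 (chr11:38035450-38059950) is separated from Mx1 by 120466 bases, and its groups overlapped. Its level was 31.4 CPM in N1, 37.2 in N3 and 79.5 in N12, then 49.5 in M13, 68.6 in M17 and 17.7 in M24, and 61.0 in G27, 63.8 in G28 and 29.3 in G42. The highest rat was a normal control and the lowest a DEN model rat, and the group means of 49.3 ± 26.2, 45.3 ± 25.7 and 51.3 ± 19.2 CPM differed by less than their SD. The groups of Oas1a (chr12:41200718-41211909) overlapped as well, with 9.21 CPM in N1, 12.4 in N3 and 22.9 in N12, 12.8 in M13, 15.0 in M17 and 5.95 in M24, and 19.1 in G27, 19.1 in G28 and 6.62 in G42. The rat genome carries several close copies of Oas1a, and how reads shared by copies were counted is not given in the sources used here, so its level is uncertain.

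Ifit2 (chr1:252894663-252900726) was the steadiest member in the normal control group. It was measured at 28.6 CPM in N1, 26.5 in N3 and 24.6 in N12, at 55.0 in M13, 38.1 in M17 and 28.5 in M24, and at 33.9 in G27, 42.7 in G28 and 37.6 in G42. M24 lay just below N1, so the DEN model and normal control groups touched, whereas all 3 PZH administration rats lay above all 3 normal control rats. Ifit3 (chr1:252906234-252911382), with 5507 bases between it and Ifit2, was measured at 5.38 CPM in N1, 7.46 in N3 and 8.69 in N12, at 12.9 in M13, 6.14 in M17 and 7.24 in M24, and at 8.14 in G27, 8.41 in G28 and 5.05 in G42. M13 alone lay above the normal control range.

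Rsad2 (chr6:45655954-45669148), encoding viperin, showed the widest spread of the 9 genes in the DEN model group, with a coefficient of variation of 65.8%. Its level was 5.70 CPM in N1, 7.04 in N3 and 8.62 in N12, then 30.7 in M13, 12.7 in M17 and 9.15 in M24, and 7.04 in G27, 8.48 in G28 and 9.18 in G42. The DEN model rats lay above the normal control rats, but M24 exceeded N12 by little and fell below G42, and M13 stood well above the rest. The deposited FPKM were 1.24 to 1.88 in the normal control rats, 3.93 to 12.4 in the DEN model rats and 1.66 to 2.36 in the PZH administration rats.

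**Figure D1:**
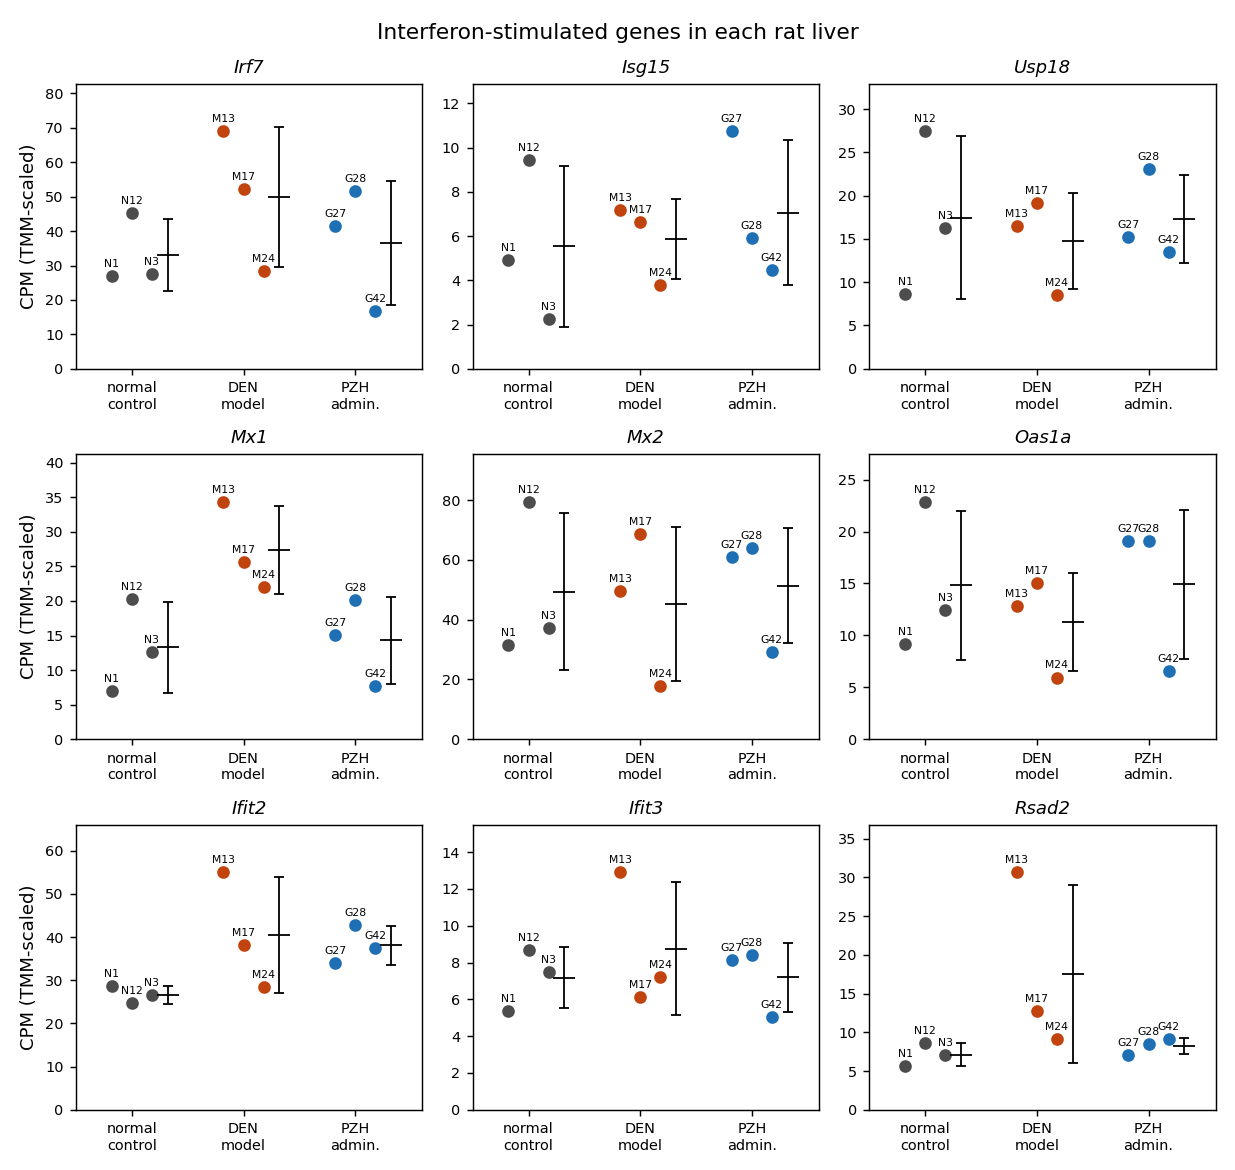
Level of the 9 genes in each rat, in CPM with TMM scaling (vertical axes, each starting at 0), by group, with the mean and SD over 3 rats beside the points. Mx1 is the gene in which all 3 DEN model rats, from 22.1 to 34.4 CPM, lie above all rats of both other groups, and in Rsad2 the DEN model mean of 17.5 CPM is carried largely by M13 at 30.7.

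The first comparison asks which genes differ between livers with DEN-induced disease and normal livers. Mx1 was 2.07-fold higher in the DEN model group (log2 fold change 1.05, SE 0.36, adjusted p = 0.0428 by the quasi-likelihood test of edgeR, corrected over 14255 genes after Benjamini and Hochberg) and Rsad2 was 2.48-fold higher (log2 fold change 1.31, SE 0.44, adjusted p = 0.0369, same test). The other 7 did not pass adjusted p under 0.05. Among them Ifit2 had a log2 fold change of 0.62 (SE 0.24, adjusted p = 0.0603) and Irf7 of 0.60 (SE 0.34, adjusted p = 0.177). Ifit3 had 0.30, Isg15 0.09, Mx2 -0.11, Usp18 -0.24 and Oas1a -0.39, each within 1 SE of 0, all with adjusted p of at least 0.479. The antiviral GTPase Mx1 and viperin were thus the 2 of 9 members called, both higher, in a comparison in which 25.3% of all tested genes were called higher and 45.8% were called in either direction. The median log2 fold change was 0.30 over the 9 genes and 0.029 over all tested genes. DEN model and normal control rats did not overlap in 2 of the 9 genes, against 58.8% of all tested genes.

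Neither call held for every single rat left out, although most of the fold changes moved little. Mx1 still passed without M24 or N12, and Rsad2 without M24 or M17. Without M13, the Rsad2 log2 fold change dropped to 0.63 (adjusted p = 0.153, edgeR) and that of Mx1 to 0.86 (adjusted p = 0.135), and neither gene passed. Without N1 the values were 1.15 for Rsad2 (adjusted p = 0.123) and 0.73 for Mx1 (adjusted p = 0.0912), and without N3 they were 1.3 (adjusted p = 0.0961) and 1.01 (adjusted p = 0.109). Mx1 missed the threshold without M17 at a log2 fold change of 1.10 (adjusted p = 0.0561), and Rsad2 without N12 at 1.47 (adjusted p = 0.0634). With M24 left out, 4 of the 9 genes passed, Irf7 with a log2 fold change of 0.90 and Ifit2 with 0.83 being added, where 34.5% of all tested genes were called. The scaling mattered as well. With library totals alone, 5 of the 9 were called higher, namely Rsad2 (2.19), Mx1 (1.92), Ifit2 (1.49), Irf7 (1.44) and Ifit3 (1.19, all log2 fold changes). Under that scaling 63.7% of all tested genes were called, 89.5% of them higher, so the count of 5 is near the share over all genes. Usp18, Mx2 and Oas1a turned from lower to higher without a call.

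The DEN model rats also differed from normal control rats in cell type markers. In this comparison 25.3% of all tested genes were called higher and 45.8% in either direction. Summed markers of leukocytes in general (4 genes) ran from 68.1 to 99.0 CPM in the normal control rats, from 186 to 367 in the DEN model rats and from 113 to 146 in the PZH administration rats, and all 4 rose in the DEN model group. Recruited macrophage markers rose in 5 of 6 genes tested, with sums of 81.2 to 123 CPM in normal control rats and 417 to 953 in DEN model rats. Resident macrophage markers went the other way, 4 of 5 being lower, with sums of 450 to 873 CPM against 197 to 332. Sinusoidal endothelium markers were lower in 3 of 4 genes, with 291 to 359 CPM against 109 to 222. Markers of cholangiocytes (12.1 to 19.9 against 193 to 632 CPM, 5 of 5 higher), stellate cells and myofibroblasts (67.4 to 110 against 482 to 1830 CPM, 5 of 6) and neutrophils (1.91 to 2.26 against 15.4 to 28.4 CPM, 4 of 4) rose. The list of T and natural killer cells summed to 26.7 to 48.3 against 80.5 to 124 CPM, with 5 of 8 higher. Those 5 were the T cell genes Cd3e, Cd3g, Cd4, Cd8a and Cd8b. Its natural killer markers Nkg7, Klrd1 and Ncr1 were not called, Ncr1 being lower (log2 fold change -1.26). Most of the sum in the DEN model rats came from Cd4, at 70.1 to 82.3 CPM. Hepatocyte markers were lower in 5 of 8 genes, and none of 4 tested B and plasma cell markers was called. Of the plasmacytoid dendritic cell list, 1 of 4 genes tested was higher in the DEN model group. The defining marker Siglech, not among those 4, was 0.624 to 1.91 CPM in normal control rats and 0.17 to 0.374 CPM, near the floor, in DEN model rats. It was higher with PZH than in the DEN model rats (log2 fold change 1.83, adjusted p = 0.0441, edgeR). Most of the list's sum of 71.7 to 152 CPM came from Bst2, itself an interferon target. The part of these cell types in the levels of the 9 genes was not tested. M24, the DEN model rat with the highest sums for leukocytes (367 CPM) and recruited macrophages (953 CPM), had the lowest level of 8 of the 9 genes in its group.

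The second comparison asks which genes differ between DEN-treated rats given PZH and those not given it. In edgeR's test none of the 9 genes passed the threshold, 2 had an unadjusted p under 0.05, and DESeq2 called 0. Those 2 were Rsad2, with a log2 fold change of -1.07 (SE 0.42, adjusted p = 0.113, edgeR), and Mx1, with -0.91 (SE 0.34, adjusted p = 0.101), the genes that differed between DEN model and normal control rats in the first comparison, with which this one shares the DEN model rats. Among all tested genes, 10.3% were called lower and 19.1% in either direction. The remaining log2 fold changes were -0.42 for Irf7, -0.25 for Ifit3, -0.07 for Ifit2, 0.21 for Mx2, 0.25 for Usp18, 0.31 for Isg15 and 0.44 for Oas1a, with SEs of 0.25 to 0.48. The median over the 9 genes was -0.07, against 0.00526 over all tested genes, and the groups did not overlap in 1 of the 9, Mx1, against 40.9% of all tested genes. With library totals alone Mx1 (-1.59) and Rsad2 (-1.74) were called lower, where 43.8% of all tested genes were called and 8.89% of those were higher. Without M13 the Rsad2 value was -0.39.

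The third comparison sets DEN-treated rats given PZH against normal control rats. Again edgeR called none of the 9 genes, 1 had an unadjusted p under 0.05, and DESeq2 called 0. That gene was Ifit2, 1.44-fold higher (log2 fold change 0.52, SE 0.19, adjusted p = 0.165, edgeR), the single member in which these groups did not overlap, against 24.2% of all tested genes. In this comparison 4.07% of all tested genes were called higher and 5.21% in either direction. The other 8 log2 fold changes lay between -0.02 for Usp18 and 0.37 for Isg15, each smaller than its SE, and the median over the 9 was 0.11, against -0.0195 over all tested genes. For Mx1 the value was 0.11 (SE 0.44) and for Rsad2 0.21 (SE 0.27).

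**Figure D2:**
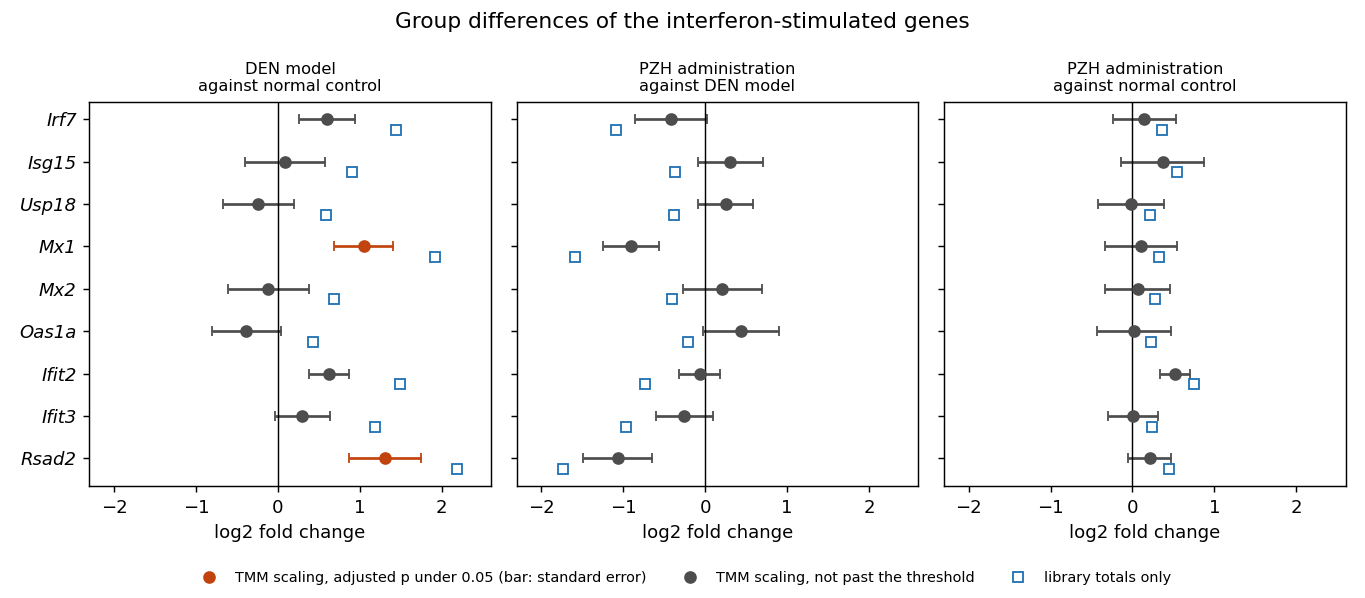
Log2 fold change of each gene (horizontal axis) in the 3 comparisons, as circles with SE bars from TMM scaling and as open squares from library totals alone. Mx1 (1.05) and Rsad2 (1.31) are the only circles marked as past adjusted p under 0.05, and the squares lie further right in the DEN model comparison and further left in the PZH comparison.

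Within each group the genes tended to be high or low together in the same rat. In the normal control group N12 had the highest level of 8 of the 9 genes and N1 the lowest of 7. In the DEN model group M13 was the highest in 6 and M24 the lowest in 8, and in the PZH administration group G28 was the highest in 6 and G42 the lowest in 7. After subtraction of the group means on the log2(CPM + 1) scale, all 36 pairs of genes had a positive Pearson correlation over the 9 rats, with a median of 0.567 and a range of 0.134 to 0.954. The closest pairs were Mx2 with Oas1a (0.954) and Irf7 with Oas1a (0.934), and Isg15 with Ifit2 was the loosest. Without that subtraction all 36 were positive as well, with a median of 0.466. The 9 points share a library for both genes of a pair, and these correlations are a description.

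Averaged over the 9 genes, N12 lay 0.517 above its group mean on the log2(CPM + 1) scale and N1 0.368 below, M13 lay 0.444 above and M24 0.586 below, and G28 lay 0.308 above and G42 0.485 below. The median coefficient of variation was 48.2% in the normal control group, 40.9% in the DEN model group and 37.4% in the PZH administration group, against 21.7%, 16.4% and 22.2% over the genes tested in all 3 comparisons. That gene-wide median was exceeded by 9 of the 9 in the DEN model group and by 7 in each of the others, Ifit2 (7.53% and 11.6%) and Rsad2 (20.5% and 13.3%) lying below it in the normal control and PZH administration groups. Resident macrophage markers also separated the rats, at 873 CPM in N12 against 483 in N1 and 450 in N3, at 332 in M13 against 288 in M17 and 197 in M24, and at 542 in G27, 344 in G28 and 178 in G42. Recruited macrophage markers ran from 81.2 CPM in N1 to 123 in N12 and from 141 in G42 to 235 in G28, but were highest in M24 (953) and lowest in M17 (417) among the DEN model rats, and general leukocyte markers had the same highest and lowest rats. Hepatocyte and sinusoidal endothelium markers were lowest in M24 (19900 and 109 CPM) and G42 (92400 and 230 CPM) within their groups. Among the normal control rats the order was another. Hepatocyte markers were there lowest in N12 (129000 CPM) and highest in N1 (136000 CPM), and sinusoidal endothelium markers lowest in N3 (291 CPM) and highest in N1 (359 CPM). The part of these lists in the shared pattern was not tested.

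**Figure D3:**
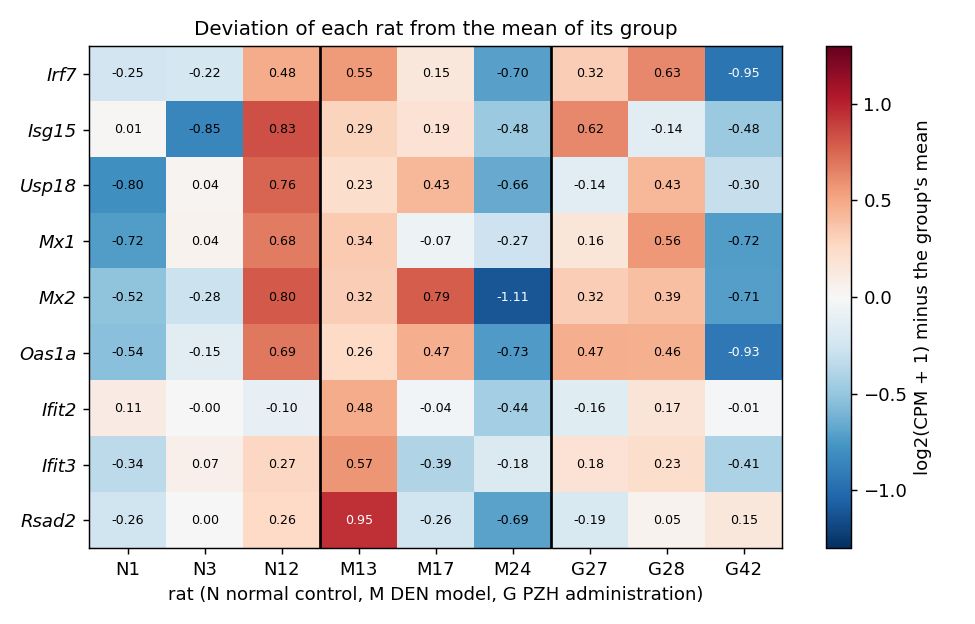
Deviation of each rat from the mean of its group, in log2(CPM + 1), for the 9 genes (rows) and 9 rats (columns), red above and blue below the mean. The columns of N12 and M13 are mostly red and those of M24 and G42 mostly blue, and Ifit2 is close to 0 in the normal control rats.

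Other genes of the interferon route were taken from a list of 119 symbols set by role, of which 110 were in the table and 98 were tested in the first comparison. Between DEN model and normal control rats, 40 of the 98 were higher and 12 lower, which is 53.1% called against 45.8% of all tested genes, with a median log2 fold change of 0.41. Between PZH administration and DEN model rats, 7 of 98 were higher and 22 lower, or 29.6% against 19.1%, with a median of -0.23. Between PZH administration and normal control rats, 4 of 95 were higher and 1 lower, or 5.26% against 5.21%. The count of 29 in the second comparison became 1 without M13, 4 without M24, 7 without G42 and 10 without G28. The share over all tested genes fell alike, from 19.1% to 1.87%, 5%, 8.22% and 7.94% in the same order. With library totals, 69 of 98 were higher and 2 lower in the first comparison and 1 was higher and 56 lower in the second, beside the shares over all genes given above for that scaling (63.7% and 43.8% called).

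The interferons themselves were barely detected at this depth. Of 10 ligand genes in the table, 7 had 0 counts in all 9 rats and the other 3, Ifnb1, Ifng and Ifne, had 12 counts together, with at most 3 in a rat, so none was tested. Among the receptors 4 of 6 were higher in the DEN model group, where 25.3% of all tested genes were called higher. None of the 4 was a chain of IFNAR. Ifnlr1, the ligand-binding chain of the interferon lambda receptor, was at or under 3 counts in all normal control rats and reached 3.22 to 6.24 CPM in the DEN model rats, at least 19.5-fold higher than the floor over the group. It was 1.07 to 2.09 CPM in the PZH administration rats, at least 6.15-fold higher than that floor and lower than in the DEN model rats (log2 fold change -1.65, SE 0.40, adjusted p = 0.028, edgeR). Ifngr1, a chain of the interferon gamma receptor, was higher in the DEN model group (log2 fold change 1.01, adjusted p = 0.00924) and lower with PZH than in the DEN model rats (-0.86, adjusted p = 0.0299). Il10rb, a chain shared with interleukin-10 signalling, was higher in the DEN model rats (log2 fold change 0.85, adjusted p = 0.0111).

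Among kinases and transcription factors, 3 of 10 rose and 2 fell in the DEN model rats, a share near the 45.8% called over all tested genes. Irf3, which starts interferon transcription, fell from 39.8 ± 9.66 to 17.3 ± 2.33 CPM (log2 fold change -1.18, adjusted p = 0.00282, edgeR) and was 31.5 ± 7.69 CPM with PZH (0.90 against DEN model, adjusted p = 0.0306). Irf5, which acts downstream of Toll-like receptors, rose (log2 fold change 1.36, adjusted p = 0.00489), as did Irf1, a factor induced by interferon gamma (0.78, adjusted p = 0.0135). Of the nucleic acid sensors and adaptors, 5 of 12 rose and 3 fell, beside the same 45.8% over all tested genes. Tmem173, encoding STING, rose from 1.37 ± 0.723 to 7.27 ± 1.88 CPM (log2 fold change 2.42, adjusted p = 0.00275) and was lower with PZH (-1.71, adjusted p = 0.0227). Tlr9, a receptor for DNA, rose (log2 fold change 1.96, adjusted p = 0.00291) and was lower with PZH (-1.41, adjusted p = 0.0366), whereas Myd88, the adaptor of Toll-like receptors, fell in the DEN model group (log2 fold change -1.05, adjusted p = 0.00188).

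Of 7 negative regulators, Samhd1, which degrades deoxynucleotides, rose in the DEN model rats (log2 fold change 1.14, adjusted p = 0.00408, edgeR), as did Socs1, an inhibitor of JAK kinases (2.64, adjusted p = 0.0229). None of the 4 genes of ISG15 conjugation passed in any comparison. Over all tested genes 45.8%, 19.1% and 5.21% were called, in the order of the comparisons. Trim25, the most abundant of the 4, was 44.4 ± 3.87, 44.1 ± 7.71 and 55.8 ± 4.76 CPM in normal control, DEN model and PZH-treated rats in turn.

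The other type I interferon targets, 51 of which were tested, included 22 that rose and 5 that fell in the DEN model rats, and 3 that were higher and 14 that were lower with PZH than in the DEN model rats. Over all tested genes, 25.3% were called higher and 45.8% in either direction between DEN model and normal control rats. Between PZH administration and DEN model rats, 10.3% were called lower and 19.1% in either direction. These rates were not tested against each other. Plscr1, a phospholipid scramblase, was 6.30 ± 0.752 CPM in the normal control group, 44.8 ± 18.3 in the DEN model group and 13.5 ± 2.71 in the PZH administration group, with log2 fold changes of 2.84 (adjusted p = 0.000398, edgeR) and -1.71 (adjusted p = 0.015). Lgals3bp, a secreted glycoprotein, followed the same order at 34.8 ± 10.7, 214 ± 37.1 and 110.5 ± 24.8 CPM. Tmem140 took the opposite order, at 117 ± 28.3, 28.9 ± 3.99 and 77.5 ± 6.48 CPM, lower in the DEN model rats (adjusted p = 0.000373) and higher with PZH than in them (adjusted p = 0.00832). Plscr1 and Lgals3bp were also higher with PZH than in normal control rats (log2 fold change 1.09, adjusted p = 0.0464, and 1.67, adjusted p = 0.0104). Of 8 interferon gamma targets tested, 4 rose and 2 fell in the DEN model rats, beside the same shares over all tested genes. Cxcl10, a chemokine that attracts T cells, rose (log2 fold change 2.27, adjusted p = 0.000404) and was lower with PZH (-1.43, adjusted p = 0.021), and Irgm, an immunity-related GTPase, rose as well (0.96, adjusted p = 0.00244). Nos2, the inducible nitric oxide synthase, was at or under 3 counts in all normal control rats and at least 10-fold higher than that floor in the DEN model group. M24, the lowest DEN model rat for 8 of the 9 interferon-stimulated genes, had the highest values of all rats for Plscr1 (62.7 CPM), Cxcl10 (27.5 CPM) and Tmem173 (9.23 CPM), whereas Lgals3bp was highest in M13 (257 CPM).

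**Figure D4:**
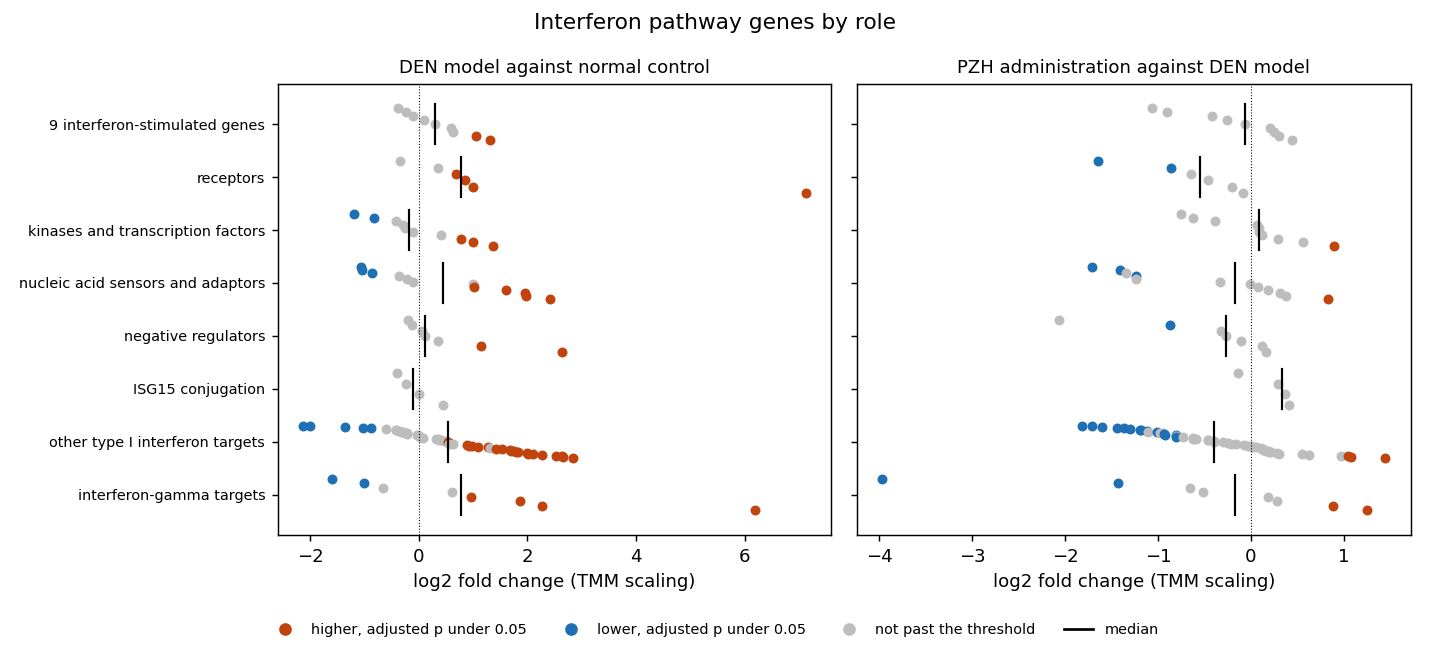
Log2 fold change (horizontal axes, TMM scaling) of the 9 genes and of the tested interferon pathway genes by role, for DEN model against normal control and PZH administration against DEN model, with a bar at each median. In the DEN model comparison 2 of the 9 genes and 22 of 51 other type I targets are marked higher, where 25.3% of all tested genes were called higher and the rates were not tested against each other. The fitted values of Ifnlr1 and Nos2 at the far right depend on normal control rats at or under 3 counts.

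The genes whose levels ran most like the mean of the 9 over the rats, among 14429 candidates, were Faap24 (Pearson's r 0.934 over 9 rats), Slx4ip (0.919), Mpp3 (0.908), St8sia6 (0.886), Itgb3 (0.883) and Gabrr2 (0.882). These values are a description of the same 9 libraries. Faap24 is a component of the Fanconi anaemia core complex and Itgb3 the integrin beta-3 chain. St8sia6 and Faap24 averaged 0.992 and 1.40 CPM, so their likeness rests on few reads. None of the 6 was called in any of the 3 comparisons, and none is on the pathway list.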

How the data were processed

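Liver mRNA of 9 rats was sequenced on an Illumina instrument. Per the labels, the submitters' processing notes name fastp, HISAT2 2.1.0, StringTie 1.3.3b and edgeR 3.30.3. The genome build and the counting settings are not given in the sources used here. The authors deposited 1 table with whole-number read counts per gene and rat, not normalized. Its deposited FPKM columns are the counts divided by gene length and library total, which held within 0.1% for 152752 of 152756 values above 0. The authors' own fold changes and p-values between groups are also in the table and were not used.

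Counts were analysed in R 4.3.3 with edgeR 4.0.16 (filterByExpr, TMM, glmQLFit, glmQLFTest) with the 6 rats of a comparison in each fit and no covariate, and adjusted over all tested genes by the Benjamini-Hochberg method. A gene was called at adjusted p under 0.05. The fit was tested on simulated data in which 200 genes were changed, fewer than were called in the rats. The corrected threshold depends on how many genes change, so the simulated shares are not the detection rates in the rats. A log2 fold change of 1 in either direction was called in 16.2%, 3.03% and 14% of the genes given it, in the order of the comparisons. For a log2 fold change of 2 the shares were 82%, 77.6% and 85.6%, and for unchanged genes 0.0363%, 0.0572% and 0.0309%. P-values set the difference between groups against the spread between rats, which edgeR estimates with information shared over genes. CPM used TMM factors over the 9 rats. Alternatives were DESeq2 1.42.0, library totals, 1 fit of all 3 groups, no filter on low counts, a minimum of 10 counts per rat, the thresholds of the study (absolute log2 fold change above 2 with unadjusted p under 0.001) and leaving out each rat.

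The members and lists were chosen with earlier results of these data known. Named genes were the 9 members, in each role of the pathway list at most the 3 called genes with the smallest p (or, with none called, the most abundant), and the 6 genes most correlated with the members' mean. Siglech, Bst2 and the genes of the T and natural killer cell list are named from the marker lists. Ifnb1 and Ifne were named after their counts were seen.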

Additional observations from a re-analysis of the deposited data

How the results depend on the processing

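The members called in DEN model against normal control numbered 2 with DESeq2 and with no filter on low counts, 3 with at least 10 counts in every rat, 5 with library totals, 1 with all 3 groups in 1 fit (Mx1 at a log2 fold change of 1.04 against 1.05, adjusted p = 0.0587 in edgeR), 0 at the thresholds of the study, and 0 to 4 when 1 rat was left out (0 without M13, N1 or N3, 1 without M17 or N12, 4 without M24). In PZH administration against DEN model the count was 2 with library totals and 0 under every other alternative run, and in PZH administration against normal control it was 0 under every alternative run. Over all tested genes, the share called in the first comparison was 48% with DESeq2, 31.8% with no filter and 63.7% with library totals. It was 42% with at least 10 counts in every rat and 44.7% with all 3 groups in 1 fit. Without 1 rat it was 32.7% (M13), 35.4% (N1), 45.7% (N3), 44.8% (M17), 37.8% (N12) and 34.5% (M24), against 45.8% with all rats. The share in the second comparison ran from 1.87% without M13 to 43.8% with library totals, and in the third from 1.51% without N1 to 9.89% with DESeq2. The cause of these moves was not tested. With 1 rat fewer, the share rose without M17 in the second comparison (22.6% against 19.1%) and without G27 in the third (9.73% against 5.21%). It fell without any other single rat in these 2 comparisons.

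The pathway list gave 52 calls in the first comparison, 44 to 50 without 1 rat and 13 at the thresholds of the study. Over all tested genes the share called was 45.8%, and 32.7% to 45.7% without 1 rat. At the thresholds of the study 1753 of 14255 genes passed. In the second, its 29 calls became 57 with library totals, 0 at the thresholds of the study and 1 to 32 without 1 rat. The share over all tested genes went from 19.1% to 43.8% with library totals and to 1.87% to 22.6% without 1 rat. There, 347 of 14272 genes passed the thresholds of the study. In the third, its 5 calls became 8 with library totals, 9 with DESeq2, 3 with at least 10 counts in every rat, 2 at the thresholds of the study and 1 to 7 without 1 rat (1 without G28 or N1). Over all tested genes the share went from 5.21% to 6.81%, 9.89% and 2.88% under the first 3 of these settings. It was 1.51% to 9.73% without 1 rat, and 310 of 13348 genes passed the thresholds of the study.

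Log2 fold changes of uncalled members changed sign under some alternatives. With library totals, Usp18 became 0.59, Mx2 0.68 and Oas1a 0.43 in the first comparison, and Isg15 -0.37, Usp18 -0.38, Mx2 -0.41 and Oas1a -0.21 in the second. In the third, Usp18 became 0.22 with library totals and 0.03 with at least 10 counts in every rat. Leaving out 1 rat, the first comparison ranged from -0.29 to 0.72 for Isg15, -0.58 to 0.25 for Usp18, -0.54 to 0.41 for Mx2, -0.66 to 0.07 for Oas1a and -0.09 to 0.50 for Ifit3. The second ranged from -0.15 to 0.56 for Isg15, -0.02 to 0.47 for Usp18, -0.17 to 0.62 for Mx2, -0.27 to 0.21 for Ifit2 and -0.47 to 0.13 for Ifit3. The third ranged from -0.17 to 0.49 for Irf7, -0.09 to 0.98 for Isg15, -0.36 to 0.44 for Usp18, -0.22 to 0.51 for Mx1, -0.20 to 0.56 for Mx2, -0.25 to 0.45 for Oas1a and -0.18 to 0.20 for Ifit3.

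With 3 rats a group, and with doses and weeks of the rats not given, differences near 1 SE could not be resolved. Larger ones went uncalled as well, such as Mx1 in the second comparison (log2 fold change -0.91, SE 0.34) and Ifit2 in the first (0.62, SE 0.24). The 2 members called in the first comparison had values of 1.05 (SE 0.36, Mx1) and 1.31 (SE 0.44, Rsad2). Depth limited Isg15 most, at 27 counts in N3. No paired analysis was possible because the rats of the groups were separate animals.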
